A study of Mus musculus with 4 samples.

Results

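The Slc25a genes encode the mitochondrial carrier family, membrane proteins that exchange metabolites across the inner mitochondrial membrane. The members were the rows of the deposited tables whose gene name starts with Slc25a, with the longest row kept for each gene. This gave 42 genes, from 51 rows, among 21506 genes in all. They were measured by RNA sequencing in 32Dclone3 cells, a mouse myeloid line grown with interleukin-3 from WEHI-conditioned medium. The comparison was between 2 libraries of stably infected cells carrying the XZ control virus and 2 libraries carrying XZ-miR-125b. Both groups had thus been infected and kept in the same medium, and each condition was infected 2 times from different virus supernatants. All 4 libraries come from 1 cell line, so p-values measure only the spread between these infected cultures.

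A carrier of this family is built from repeats of a domain with a pair of membrane helices and opens in turn to the matrix and to the space outside the inner membrane. The family supplies phosphate and ADP for ATP synthesis, returns ATP to the cytosol, and moves citrate, malate, aspartate, glutamate, nucleotides, cofactors and iron. In blood-forming cells it is known best for the iron and glycine carriers that feed haem synthesis. Members with the names Ucp, Mtch and Mcart belong to the same protein family but fall outside the name rule and were counted apart.

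miR-125b pairs through bases 2 to 8, its seed, with sites in the 3′ untranslated regions of messenger RNAs. Its mature sequence (RefSeq, GRCm38.p6) is shown with the seed in capitals, above the 8mer and 7mer-m8 sites of the tested Slc25a genes and of Slc25a27, which was too low to be tested, because these are the longest seed matches in the family. Shorter matches in other members are counted further on. In each site the capitals mark the match, CTCAGGG for a 7mer-m8 site and CTCAGGGA for an 8mer, read on the sense strand of the longest GENCODE M21 3′ untranslated region.
miR-125b-5p: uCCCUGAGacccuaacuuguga
Slc25a15 7mer-m8: caggcgtttagtgactggtcaaCTCAGGGt
Slc25a16 7mer-m8: tctacttgttctggggagtaaaCTCAGGGt
Slc25a22 8mer: aagggactgggggccacgctaCTCAGGGAt
Slc25a35 7mer-m8: ccccgatatatttcatacccatCTCAGGGt
Slc25a35 8mer: caggcatcctgacagcagcctCTCAGGGAt
Slc25a42 7mer-m8: ggcccatagcgaagtgctggtcCTCAGGGt
Slc25a27 7mer-m8: gttttaggatggatggctacagCTCAGGGg

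Levels are given in RPKM, reads per kilobase of exon, scaled to the same number of reads per library. Between 10376284 (control replicate 2) and 12620907 reads (miR-125b replicate 1) lay behind all rows of a library. A single read, counted on 1 kb of exon, equalled 0.0792 to 0.0964 RPKM. Myeloid genes marked the cells as labelled, with 12 of 13 listed markers at 1 RPKM or more in at least 2 libraries. Kit was the exception, at 0 RPKM in all but control replicate 2 (0.0186 RPKM). Erythroid markers, which bear on the iron and glycine carriers, summed to between 15.8 and 35.8 RPKM per library, with 4 of 11 at 1 RPKM in 2 libraries, while Hbb-b1, Hbb-b2 and Slc4a1 were listed at 0 in every library. Markers of granulocytic maturation summed to 924 and 592 RPKM in the control libraries against 185 and 149 RPKM under miR-125b. Of the 9 genes, 6 reached 1 RPKM in 2 libraries, and they did not all follow the sum. S100a9 was at 460 and 248 against 33.0 and 1.92 RPKM, while Lcn2 was at 21.9 and 51.7 against 29.4 and 67.6 RPKM. The part of these markers in the results on carriers was not tested. None of the lymphoid, stromal, muscle, adipocyte or liver markers reached 1 RPKM in any library. A principal component analysis over all tested genes set control replicate 2 apart on its first axis (57.8% of the variance). It lay at -34.1, control replicate 1 at -0.223, and miR-125b replicates 1 and 2 at 12.2 and 22.1, so this axis also follows the groups. Values without control replicate 2, an alternative that for groups of genes was added after seeing the data, are given beside the main differences.

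Most of the family was expressed. In 34 of the 42 genes (81.0%) at least 2 libraries reached 1 RPKM, against 47.9% of all genes. In 32 of these genes all 4 libraries did, and Slc25a14 did in 3 and Slc25a2 in 2. The 8 genes below this level were Slc25a18, Slc25a21, Slc25a24, Slc25a27, Slc25a29, Slc25a31, Slc25a34 and Slc25a41. Among the tested genes the median level was 13.3 RPKM, beside 12.9 RPKM for all tested genes. Mean levels reached 100 RPKM in 5 members, lay between 10 and 100 RPKM in 14, between 1 and 10 RPKM in 15 and below 1 RPKM in 8. Summed over the family, the levels were 1228 and 1198 RPKM under the control virus, against 1233 and 1230 RPKM under miR-125b, between 0.399% and 0.423% of the RPKM of all genes.

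**Figure D1:**
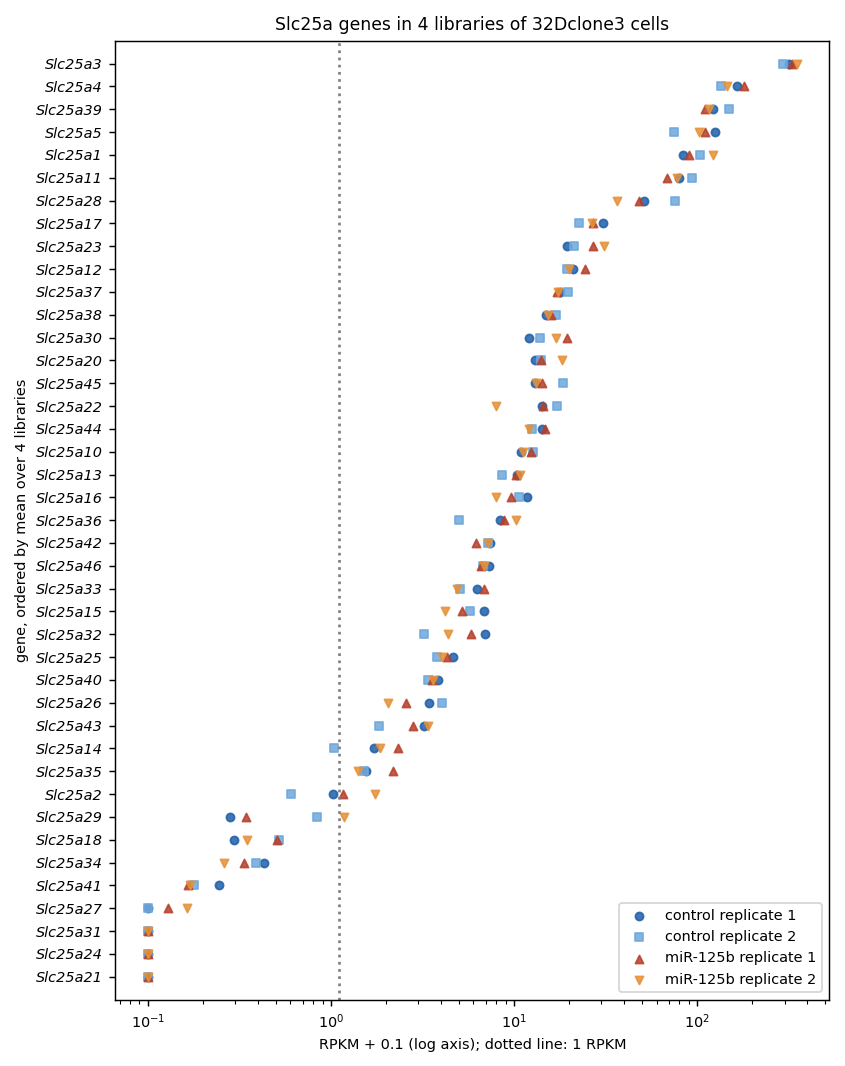
RPKM of 41 Slc25a genes in each library (log axis, 0.1 added so that values of 0 can be drawn), ordered by their mean over the 4 libraries. The order runs from Slc25a3 at a mean of 323 RPKM down to 3 genes listed at 0, and for most genes the control and miR-125b symbols lie among each other.

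The carriers that serve ATP synthesis were the most abundant group. Slc25a3 (chromosome 10, 90579323 to 90586708 in mm9, minus strand, 8 exons), the phosphate carrier, stood at 319 and 295 RPKM for controls 1 and 2, and at 328 and 351 RPKM for miR-125b 1 and 2. Both miR-125b values lay above both control values, by a log2 fold change of 0.14 ± 0.20 (SE) with a 95% interval from -0.33 to 0.62 (adjusted p = 0.816 in limma's test over all genes). The next in order by level was Slc25a4 (chromosome 8, 47292698 to 47296363), the ADP/ATP carrier typical of heart and muscle, at 165 and 134 RPKM under the control virus, against 181 and 145 RPKM under miR-125b. Its groups overlapped, and its log2 fold change of 0.12 ± 0.22 (SE, limma, adjusted p = 0.859) turned to -0.028 without control replicate 2 and to -0.038 without miR-125b replicate 1. Slc25a5 (chromosome X, 34335647 to 34338801), the ADP/ATP carrier of dividing cells, stood at 125.3 and 74.3 RPKM for controls 1 and 2, and at 111 and 102 RPKM for miR-125b 1 and 2. The control libraries bracketed the miR-125b libraries, and the log2 fold change was 0.14 ± 0.28 (SE, limma, adjusted p = 0.870), 0.51 without control replicate 1 and -0.23 without control replicate 2. The level of Slc25a5 was between 0.553 and 0.758 times that of Slc25a4 in the same library.

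The values of Slc25a5 are uncertain because of close copies. Of all stretches of 36 bases in its transcript, 62.4% also occurred in transcripts of 12 other annotated genes, against 0% for Slc25a4 and 5.90% for Slc25a3. The read length and the treatment of reads with several matches are not stated in the labels. Slc25a31, the ADP/ATP carrier of male germ cells, was listed at 0 in all 4 libraries. Together Slc25a3, Slc25a4 and Slc25a5 took between 42.0% and 50.3% of the summed RPKM of the family, with the lowest share in control replicate 2.

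The carriers of ATP with magnesium, which exchange it for phosphate and are regulated by calcium, were led by Slc25a23. Slc25a23 (chromosome 17, 57183135 to 57199286, minus strand, 10 exons) stood at 19.4 and 21.05 RPKM under the control virus, against 27.0 and 30.9 RPKM under miR-125b. Its groups were apart, and its log2 fold change of 0.50 ± 0.18 (SE) had the smallest adjusted p of the family (0.505 in limma's test). Without control replicate 2 the log2 fold change was 0.55, and with each library left out in turn it lay between 0.40 and 0.59. Slc25a25, a relative, stood at 4.55 and 3.71 RPKM for controls 1 and 2, and at 4.21 and 3.93 RPKM for miR-125b 1 and 2, without separation. Slc25a41 held at most 2 reads in a library, and Slc25a24 was listed at 0 throughout.

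No carrier of the citrate cycle's acids or of the malate-aspartate shuttle had an adjusted p under 0.05 in limma's test. Slc25a1 (chromosome 16, 17925305 to 17928312), which exports citrate for lipid synthesis, stood at 83.3 and 104 RPKM under the control virus, against 90.7 and 123 RPKM under miR-125b. The groups overlapped, and the log2 fold change of 0.18 ± 0.24 (SE, limma, adjusted p = 0.802) was -0.035 without miR-125b replicate 2. Slc25a11, which exchanges oxoglutarate for malate, stood at 79.7 and 93.9 RPKM for controls 1 and 2, and at 68.3 and 77.2 RPKM for miR-125b 1 and 2. Both miR-125b values were below the control values, with a log2 fold change of -0.25 ± 0.20 (SE, limma, adjusted p = 0.696) that was -0.13 without control replicate 2 and -0.37 without control replicate 1. Slc25a12, an aspartate-glutamate carrier, stood at 20.9 and 19.4 RPKM under the control virus, against 24.2 and 19.9 RPKM under miR-125b. Its relative Slc25a13 had a mean of 9.94 RPKM over the 4 libraries and the dicarboxylate carrier Slc25a10 one of 11.7 RPKM, all with overlapping groups. Of the glutamate carriers, Slc25a22 stood at 14.0 and 17.0 RPKM under the control virus, against 14.3 and 7.86 RPKM under miR-125b. The difference in Slc25a22 lay in miR-125b replicate 2 alone, and without that library its log2 fold change went from -0.50 to -0.10, and without miR-125b replicate 1 to -0.89. Its relative Slc25a18 held between 3 and 7 reads in a library. Slc25a21, the oxoadipate carrier, was listed at 0.

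Iron and glutathione carriers were lower in miR-125b cells by sign in 4 of 4 genes, and in 3 of them without overlap of the groups, which held in this direction for 20.4% of all tested genes. Their median log2 fold change was -0.18, -0.29 without control replicate 1 and -0.099 without control replicate 2. Slc25a40, the smallest of the 4 differences at -0.014, turned to 0.059 without control replicate 1. Slc25a28 (chromosome 19, 43738292 to 43749371, minus strand, 4 exons), mitoferrin 2, stood at 51.3 and 75.5 RPKM for controls 1 and 2, and at 48.1 and 36.6 RPKM for miR-125b 1 and 2. Its log2 fold change was -0.56 ± 0.26 (SE), with a 95% interval from -1.17 to 0.058 (limma, adjusted p = 0.548). It was -0.28 without control replicate 2 and -0.83 without control replicate 1. Slc25a37 (chromosome 14, 69859908 to 69903160), mitoferrin 1, the iron importer of developing red cells, was steadier at 17.8 and 19.6 RPKM under the control virus, against 17.1 and 17.2 RPKM under miR-125b. In each library Slc25a28 was at between 2.12 and 3.84 times the level of Slc25a37. Slc25a39, a glutathione carrier, was the third most abundant member, at 122 and 149 RPKM for controls 1 and 2, and at 109.8 and 116 RPKM for miR-125b 1 and 2, with a log2 fold change of -0.25 ± 0.20 (SE) that was -0.11 without control replicate 2 and -0.40 without control replicate 1. Its relative Slc25a40 had a mean of 3.50 RPKM and overlapping groups.

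All 8 carriers of nucleotides and cofactors were expressed, at means from 2.93 to 26.6 RPKM. By sign 5 were above 0 and 3 below, and without control replicate 2 there were 1 above and 7 below. Slc25a26 (chromosome 6, 94450308 to 94554644, plus strand, 10 exons), which imports S-adenosylmethionine for methylation inside mitochondria, stood at 3.34 and 3.92 RPKM under the control virus, against 2.48 and 1.96 RPKM under miR-125b. The groups did not overlap, and the log2 fold change was -0.53 ± 0.21 (SE, limma, adjusted p = 0.509), between -0.65 and -0.41 with each library left out in turn. Its row shares 122 exon bases with Lrig1 on the opposite strand, and reads from the 2 genes cannot be told apart there. Slc25a36, a pyrimidine nucleotide carrier, stood at 8.23 and 4.88 RPKM for controls 1 and 2, and at 8.72 and 10.2 RPKM for miR-125b 1 and 2. Most of that difference came with control replicate 2, and leaving that library out took the log2 fold change from 0.50 ± 0.25 (SE) to 0.17, while it was 0.83 without control replicate 1. The other pyrimidine carrier, Slc25a33, had a mean of 5.67 RPKM and overlapping groups. Slc25a17, a peroxisomal member, stood at 30.3 and 22.6 RPKM under the control virus, against 26.9 and 26.7 RPKM under miR-125b. Its groups overlapped, as they did in the folate carrier Slc25a32, with a mean of 4.997 RPKM. Slc25a32 had the widest error of the tested members, with an SE of 0.32, and stood at 6.83 RPKM in control replicate 1 and 3.14 RPKM in control replicate 2.

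Among carriers of amino acids and acylcarnitine, Slc25a38, the glycine carrier of haem synthesis, had a mean of 15.7 RPKM and overlapping groups, and Slc25a44, a carrier of branched-chain amino acids, had 13.3 RPKM and a log2 fold change of -0.0036 ± 0.19 (SE). Slc25a20, which brings acylcarnitines in for fatty acid oxidation, stood at 12.9 and 13.9 RPKM under the control virus, against 14.0 and 18.1 RPKM under miR-125b. Its lower miR-125b value was almost level with the higher control value. Slc25a2, an ornithine carrier, stood at 0.926 and 0.501 RPKM for controls 1 and 2, and at 1.06 and 1.65 RPKM for miR-125b 1 and 2, between 7 and 26 reads a library. It passed the filter of 1 RPKM only through the miR-125b libraries, so higher values there were a condition of its entry. Slc25a29, a carrier of basic amino acids, was short of the filter, with 1.08 RPKM in miR-125b replicate 2 and at most 0.736 RPKM elsewhere.

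Both expressed relatives of the uncoupling proteins were at higher values with miR-125b, without overlap of the groups. This held in the same direction for 22.3% of all tested genes. Slc25a30 (chromosome 14, 76161806 to 76186844, minus strand, 10 exons) stood at 11.95 and 13.7 RPKM under the control virus, against 19.3 and 16.9 RPKM under miR-125b. The groups were apart, with a log2 fold change of 0.47 ± 0.18 (SE, limma, adjusted p = 0.509) that was 0.56 without control replicate 2 and between 0.38 and 0.56 with each library left out in turn. Slc25a14 stood at 1.62 and 0.933 RPKM for controls 1 and 2, and at 2.21 and 1.75 RPKM for miR-125b 1 and 2, on between 17 and 49 reads, and its log2 fold change of 0.40 was 0.18 without control replicate 2. Slc25a27 held 0 reads in both control libraries and 1 and 2 reads in the miR-125b libraries. The remaining members were Slc25a46, a protein of the outer membrane that shapes mitochondria, with a mean of 6.76 RPKM, and Slc25a45, Slc25a43 and Slc25a35, with means of 14.6, 2.72 and 1.57 RPKM, all with overlapping groups. Slc25a34 held between 5 and 10 reads.

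Over the 34 tested members, the comparison of miR-125b with control cells gave 0 called genes at an adjusted p under 0.05 (limma on log2(RPKM + 1), adjusted over all 10310 genes tested), where 0% of all genes were called. The smallest adjusted p in the family was 0.505. With limma-voom on recovered reads 0 members were called as well. At an unadjusted p under 0.05 there were 3 members, Slc25a23 and Slc25a30 at higher values and Slc25a26 at lower values, which is 8.82% of the family beside 9.38% of all tested genes. By direction these were 2 members beside 4.17% of genes at higher values and 1 member beside 5.21% at lower values. This share is near the background. That count was 7 without control replicate 1, where 29.2% of all genes were at that level, 1 when the first miR-125b library was left out (6.49% of all genes) and 0 when the second was (3.22%).

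The 2 groups of libraries did not overlap in 15 members (44.1%), beside 42.8% of all tested genes. In 7 of these the miR-125b values were higher, beside 22.3% of all genes, and in 8 they were lower, beside 20.4%. The 7 include Slc25a2, which passed the filter only through the miR-125b libraries, so its separation is not a result. An exact permutation test of a single gene with 2 libraries against 2 cannot give a p below 0.333. Log2 fold changes had a median of 0.030 in the family and 0.024 over all tested genes, and 19 members were above 0 and 15 below (14 and 20 without control replicate 2), beside 52.8% of all genes above 0. The sizes of the differences were small, with a median of 0.14 on the log2 scale regardless of sign, beside 0.20 for all tested genes, and a range from -0.56 for Slc25a28 to 0.50 for Slc25a36. With each library left out in turn the family's median lay between -0.047 (second control library out) and 0.10 (first control library out). In 9 of the 34 members, Slc25a2 among them, the difference between the groups was larger than both differences between replicates. The same count was not made over all tested genes, so whether 9 is many or few cannot be said. The 95% intervals of the log2 fold changes still allow sizeable changes. For Slc25a5, for example, they ran from 0.696 to 1.75 times the control level on the RPKM + 1 scale.

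**Figure D2:**
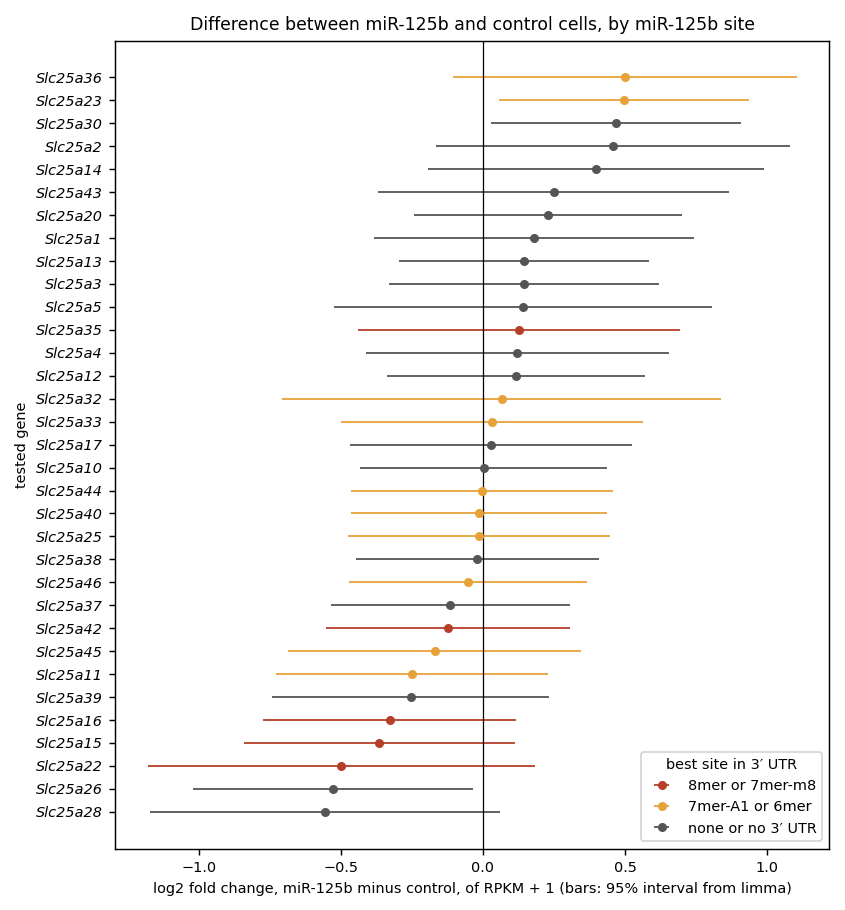
Log2 fold change of RPKM + 1, miR-125b minus control, for 33 tested Slc25a genes with 95% intervals from limma, coloured by the best miR-125b site in the 3′ untranslated region. Values run from -0.56 to 0.50, and the unadjusted intervals leave out 0 only for Slc25a23, Slc25a30 and Slc25a26.

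The control libraries differed from each other along with base composition. Across the 34 tested members, the log2 difference of control replicate 2 from control replicate 1 went with the GC content of the transcript (Pearson's r = 0.58, Spearman's rho = 0.59, n = 34 genes in the same 2 libraries). Slc25a28 has 60.9% GC and was higher in control replicate 2 by 0.55 on the log2 scale. Slc25a32, with 41.2% GC, and Slc25a36, with 40.7%, were lower there by log2 differences of -0.92 and -0.65. Other members low in GC differed less, with -0.15 for Slc25a40 (39.7% GC), -0.098 for Slc25a46 (40.7%) and -0.14 for Slc25a16 (43.4%). GC content was that of the GENCODE transcript, which can differ in length from the measured row. For Slc25a32 the transcript has 5905 bases and the row 2945 exon bases, and for Slc25a36 5227 and 3061. Slc25a5 is near the middle in GC, at 48.6%, and its log2 difference was -0.75. The difference between miR-125b and control cells went with GC content less closely, with r = -0.27 and rho = -0.25.

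**Figure D3:**
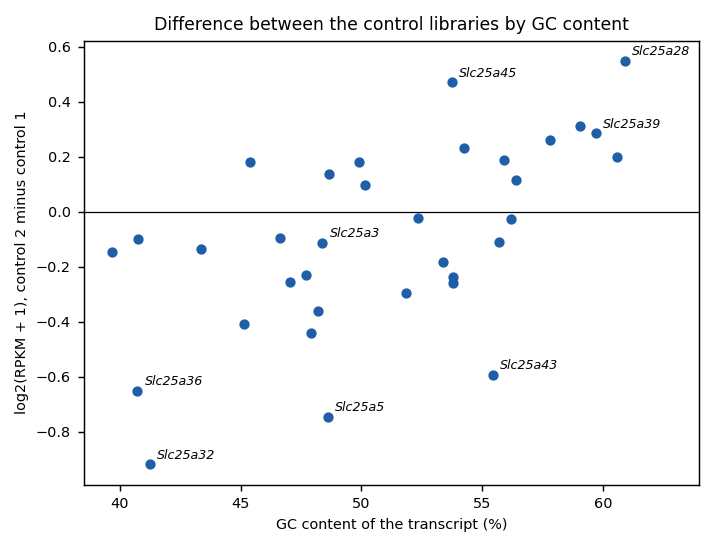
Difference of log2(RPKM + 1) between control replicate 2 and control replicate 1 against GC content (%) for the 34 tested Slc25a genes. Slc25a32 and Slc25a36 at the low end of GC content lie below 0 and Slc25a28 at the high end lies above 0. Slc25a40, with the lowest GC content (39.7%), differs less, by -0.15.

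Sites for miR-125b were present in some carriers. Of 33 tested members with an annotated 3′ untranslated region, 2 had an 8mer as their best site, 3 a 7mer-m8, 7 a 7mer-A1 (TCAGGGA), 4 a 6mer (TCAGGG) and 17 none. An 8mer or 7mer-m8 was thus found in 15.2% of them, beside 17.1% of 9941 tested genes, and the median length of the region was 1333 bases in the family and 1334 bases in all. The match alone does not show that a site is used.

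The 5 tested members with such a site are among those whose sequences are printed above. Slc25a15 (chromosome 8, 23486023 to 23509093), the main ornithine carrier, stood at 6.78 and 5.64 RPKM under the control virus, against 5.12 and 4.10 RPKM under miR-125b. Its log2 fold change was -0.36 ± 0.20 (SE, limma, adjusted p = 0.597), and its region of 2306 bases held a 7mer-m8, a 7mer-A1 and a 6mer. Slc25a16 (chromosome 10, 62383381 to 62409242), linked to coenzyme A in mitochondria, stood at 11.7 and 10.6 RPKM for controls 1 and 2, and at 9.54 and 7.90 RPKM for miR-125b 1 and 2, a log2 fold change of -0.33 ± 0.19 (SE, limma, adjusted p = 0.607). In both genes the groups did not overlap. With each library left out in turn the log2 fold change ran from -0.50 to -0.23 for Slc25a15 and from -0.45 to -0.21 for Slc25a16, both smallest without miR-125b replicate 2.

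Slc25a42 (chromosome 8, 72708239 to 72736180), a coenzyme A carrier, stood at 7.30 and 7.14 RPKM under the control virus, against 6.07 and 7.07 RPKM under miR-125b, close to level in all but miR-125b replicate 1, with a log2 fold change of -0.12 ± 0.18 (SE, limma, adjusted p = 0.825). Slc25a22 (chromosome 7, 148615651 to 148623773) carries an 8mer, and only miR-125b replicate 2 lay apart, as described. Slc25a35 (chromosome 11, 68781633 to 68786017) stood at 1.46 and 1.42 RPKM for controls 1 and 2, and at 2.08 and 1.31 RPKM for miR-125b 1 and 2, on between 27 and 48 reads. Its 8mer is not in the transcript of the row that was measured, which holds the 7mer-m8, and 2 other genes share exon bases with that row on the opposite strand. Of the 5 genes, 4 were below 0 by sign and 3 of these were lower without overlap, which 20.4% of all tested genes were too. Their median log2 fold change was -0.33, beside -0.061 for all tested genes whose best site was of these 2 kinds. It ran from -0.45 without miR-125b replicate 1 to -0.21 without miR-125b replicate 2. The members without a site had a median of 0.12, beside 0.050 for all genes without one, and with each library left out it lay between 0.026 (first miR-125b library out) and 0.18 (first control library out). No member passed the test, so these values describe the libraries only.

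Transcript rows gave little further separation. Of the 42 genes, 6 had more than 1 row. The 4 rows of Slc25a44 lay between 12.1 and 12.6 RPKM in control replicate 2, and the rows of Slc25a25 lay between 4.55 and 5.04 RPKM in control replicate 1. The 2 rows of Slc25a22 held 439 reads each in control replicate 1. Shared reads are repeated in such rows, so they are not independent measurements.

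Members of the protein family under other names gave no call either. Of 7 such genes in the tables, 5 were tested. The call count was 0, where 0% of all tested genes were called. At an unadjusted p under 0.05 in limma's test the count was also 0, beside 9.38% of all tested genes. Ucp2, an uncoupling protein of blood cells, stood at 21.8 and 20.2 RPKM under the control virus, against 24.4 and 26.3 RPKM under miR-125b, with separated groups and a log2 fold change of 0.26 ± 0.18 (SE, limma, adjusted p = 0.655). Ucp1, the uncoupling protein of brown fat, was listed at 0.

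Genes that work with the carriers were read from 12 further lists, and adjusted over all genes 0 of their members were called by limma or limma-voom. The genes with an unadjusted p under 0.05 in limma's test ranged from 0 of 17 in nucleotide supply to 2 of 5 in citrate export and acetyl-CoA, beside 9.38% of all tested genes. List medians are followed by their range with each library left out in turn. The citrate cycle had 21 of 22 tested genes above 0, beside 52.8% of all genes. Of the 22, 13 were higher without overlap and 0 lower, beside 22.3% and 20.4% of all genes. The median log2 fold change was 0.22 (0.19 to 0.44), and without control replicate 2 there were 17 of 22 above 0. Idh2, mitochondrial isocitrate dehydrogenase, stood at 73.3 and 60.6 RPKM for controls 1 and 2, and at 101 and 108 RPKM for miR-125b 1 and 2 (limma, log2 fold change 0.64 ± 0.20 (SE), adjusted p = 0.464). The 11 tested genes of mitochondrial one-carbon metabolism, the pathway that Slc25a32 feeds, were all above 0, with a median of 0.20 (-0.018 to 0.57). This rested on control replicate 2, without which 5 of the 11 were above 0 and the median was -0.018. For the shuttle enzymes the median was 0.21 over 7 genes (0.065 without miR-125b replicate 2 to 0.26), with Mdh1, cytosolic malate dehydrogenase, at 43.9 and 39.7 RPKM under the control virus, against 62.8 and 63.7 RPKM under miR-125b. Genes of citrate export and acetyl-CoA had a median of 0.46 over 5 genes (0.29 without control replicate 2 to 0.56). By p they were led by Idh1 at 49.7 and 43.9 RPKM for controls 1 and 2, and at 78.2 and 69.4 RPKM for miR-125b 1 and 2.

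Haem and iron-sulphur cluster genes, the partners of the iron and glycine carriers, had a median of -0.13 over 18 genes (-0.20 to -0.070, the latter without miR-125b replicate 1). Of these, 6 were lower without overlap and 3 higher, beside 20.4% and 22.3% of all genes. Cpox, a haem synthesis enzyme, stood at 19.4 and 20.6 RPKM under the control virus, against 11.8 and 13.5 RPKM under miR-125b (limma, adjusted p = 0.464). The carnitine shuttle and fatty acid oxidation had a median of 0.17 over 14 genes (0.081 without miR-125b replicate 2 to 0.22), while Acads, an acyl-CoA dehydrogenase, stood lower, at 14.5 and 17.9 RPKM for controls 1 and 2, and at 8.15 and 8.35 RPKM for miR-125b 1 and 2 (limma, adjusted p = 0.363). Ornithine and urea cycle enzymes had a median of 0.17 over 7 genes (0.11 without control replicate 2 to 0.24), and genes of ADP/ATP exchange and the permeability transition 0.17 over 10 (-0.055 without control replicate 2 to 0.21). In this last list 4 genes were higher and 3 lower without overlap, beside 22.3% and 20.4% of all genes. Vdac1, the outer membrane channel, stood at 101 and 72.6 RPKM under the control virus, against 129 and 126 RPKM under miR-125b. Bak1, a pore-forming protein of apoptosis, stood lower, at 69.2 and 67.2 RPKM for controls 1 and 2, and at 53.8 and 42.9 RPKM for miR-125b 1 and 2. Bax, its relative, had a log2 fold change of -0.45 ± 0.21 (SE, limma, adjusted p = 0.552). Import and assembly genes had a median of -0.063 over 19 genes (-0.14 to 0.10), nucleotide supply 0.064 over 17 (-0.0079 to 0.099), other membrane transporters 0.013 over 19 (-0.050 to 0.073) and regulators of mitochondrial biogenesis 0.043 over 11 (-0.057 to 0.093), each lowest without control replicate 2. No list was tested as a set, and all share the 4 libraries.

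**Figure D4:**
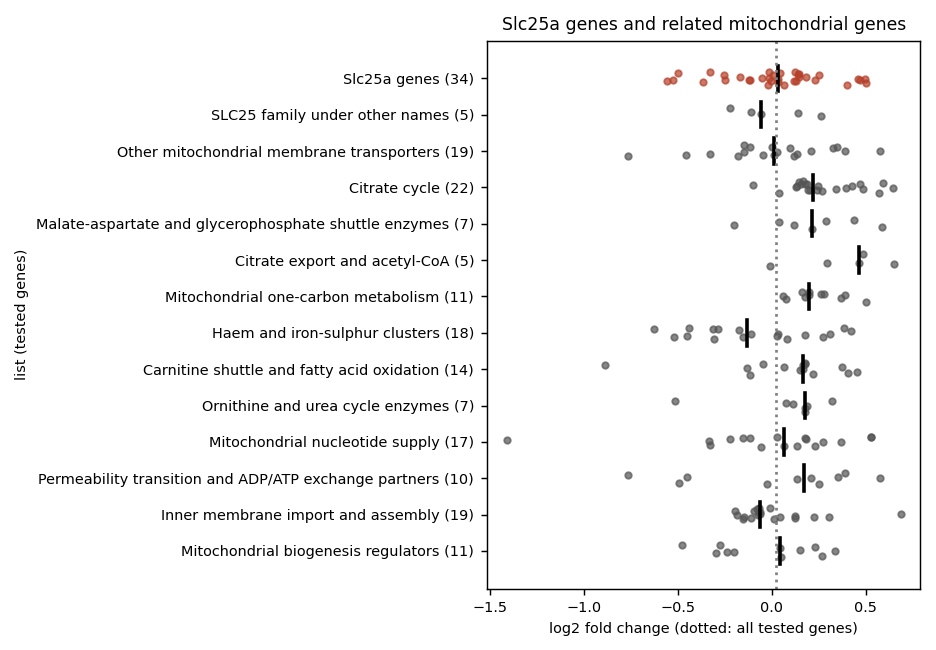
Log2 fold changes (miR-125b minus control) of the tested Slc25a genes and of 13 lists of related genes, with the number of tested genes in brackets, medians as black bars and the median of all tested genes, 0.024, as a dotted line. The Slc25a genes spread on both sides of that line around a median of 0.030, while the citrate cycle genes have a median of 0.22 (0.19 to 0.44 with each library left out in turn).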

How the data were processed

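The authors deposited 1 table per library with 26982 RefSeq transcript rows and an RPKM value per row. Coordinates are those of mm9, the build in the submitters' processing notes. Aligner and counting program were not given in the sources used here. Dividing RPKM times exon length by the value of 1 read gave whole reads for 100% of rows, within 0.001 reads, in every library. The longest row was kept for each of 21506 genes. Genes with at least 1 RPKM in at least 2 libraries (10310) were fitted with limma 3.58.1 in R 4.3.3 (trended prior, group as the only term, 2-sided, Benjamini-Hochberg over all genes) on log2(RPKM + 1), which understates changes of low genes. A count test had been planned in case of raw counts and was replaced because the values are RPKM. The step was checked on simulated reads with known changes. Those reads were drawn for each gene independently, without a shift of a library like that of control replicate 2. The check therefore does not show how the test performs on these libraries. Libraries of a group differed beyond sampling noise (chi-square per gene 40.8 for control, 15.8 for miR-125b) and were counted apart.

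All 42 Slc25a genes matched GENCODE M21 (GRCm38) by accession, and only sequences were taken from it. The mature miRNA comes from RefSeq. The fully described genes are the 12 tested members highest in level, the 12 with the smallest p and the carriers of a 7mer-m8 or 8mer. In each other list up to 3 genes were taken by p. Members and lists were chosen with earlier results of these data known. Values counted from reads cover counting error only. Starts are 1-based. The values of 1 tested member, kept in all fits and counts, are not reported here.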

Additional observations from a re-analysis of the deposited data

How the results depend on the processing

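The count of 0 called Slc25a genes was 0 in each of the 12 alternatives: no filter on low values, a mean of at least 5 RPKM, pseudocounts of 0.1 and 0.5, the row with the most reads, median-ratio scaling, limma-voom, each library left out, and the replicate block. Over all genes the 0 calls became 0 to 91 with each library left out, and 12 with the replicate number as a block. Same-numbered libraries did not deviate together over the tested genes (r = 0.021). With 2 libraries a group, this value cannot show whether the numbers pair them. The block called 0 members. The members of the related lists had 0 to 1 calls with each library left out, the 1 being Cmpk2 without miR-125b replicate 1. The median of the family ran from -0.047 to 0.10 with each library left out. The family members at 1 RPKM numbered 32 to 35 when 4 libraries or 1 library were required. Of 248 repeats of the 21 fully described genes, 241 kept their sign and 7 turned, all with a library left out. Those genes ran from -0.035 to 0.40 (Slc25a1), -0.018 to 0.25 (Slc25a12), -0.17 to 0.23 (Slc25a17), -0.083 to 0.33 (Slc25a35), -0.038 to 0.28 (Slc25a4) and -0.23 to 0.51 (Slc25a5), and the cause was not tested. Depth limits Slc25a2, Slc25a14, Slc25a35, Slc25a43 and Slc25a26 most.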
